A study of Mus musculus with 8 samples.

Results

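Myeloid 32D cells that carry Jak2V617F were compared with 32D cells that carry Jak2WT after both lines had lost the glucose transporters GLUT1 and GLUT3. The members were the genes with at least 1 FPKM (fragments per kilobase of gene, scaled by a library size). This level had to be reached in at least 2 of the 4 double-knockout (dKO) libraries, and 11332 of 56748 genes listed did so. Of those listed, 25788 were above 0 in at least 1 of the 8 libraries of the series. Of the members, 9554 are protein coding, 643 are processed pseudogenes and 612 are long noncoding RNAs. Both V617F libraries alone carried 247 of them past the filter and both WT libraries alone carried 177, so these genes had to differ in level. The remaining 10908 reached the minimum in both groups, and 10896 members also passed the same rule in the GLUT1/3 WT libraries.

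32D is an interleukin-3-dependent line from mouse bone marrow whose labels call it myeloblast-like. Both backgrounds had been transduced with murine Jak2, unmutated in one line (Jak2WT) and with the V617F substitution in the other. The groups compared were 2 Jak2WT Slc2a1/3dKO clones and 2 Jak2V617F Slc2a1/3dKO clones, numbered 1 and 3 in each, and the same numbers of Slc2a1/3WT clones of each background served as the reference with intact transporters. For 24 h before RNA was taken, all clones were kept in RPMI-1640 low in glucose (5 mM) and glutamine (1 mM), with 2 ng/ml interleukin-3 and 10% serum. Each library was a cell clone, the Jak2 genotype came with a separately transduced line, and the study's own clone table gives the same Slc2a1 edit for the dKO clones of a background, so that genotype, line and edit cannot be told apart. P-values therefore measure the spread between sister clones.

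JAK2 is the tyrosine kinase that signals below the receptors for erythropoietin and interleukin-3, mainly through STAT5. The V617F substitution leaves the kinase active without ligand and is the most common driver of myeloproliferative neoplasms, in which red cells, platelets and granulocytes are overproduced. GLUT1 (Slc2a1) and GLUT3 (Slc2a3) are the main glucose importers of blood cells, and a cell without them must draw on other fuels such as glutamine. The comparison asks which transcripts still separate the mutant from the wild-type line when neither can take up glucose through these carriers.

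The targeted genes were examined first. Slc2a1 was at 9.47 and 9.17 FPKM in the Jak2WT dKO clones 1 and 3 and at 17.3 and 12.7 FPKM in the Jak2V617F dKO clones 1 and 3, against 44.7 and 48.4 in Jak2WT and 64.01 and 52.97 in Jak2V617F with intact transporters. Transcript of the edited gene thus remained in every dKO clone at a reduced level, and it was higher in the Jak2V617F pair (log2 difference 0.62 ± 0.15 SE, adjusted p = 0.028 in limma). Slc2a3 was at 16.03 and 49.5 FPKM in the Jak2WT dKO clones and at 48.2 and 23.8 FPKM in the Jak2V617F dKO clones, and these pairs overlapped. Jak2 was at 218 and 244 FPKM in Jak2WT dKO and at 152 and 165 FPKM in Jak2V617F dKO, lower in the mutant line with a difference of -0.54 ± 0.09 SE on the log2 scale (adjusted p = 0.0082). Reads of the vector's murine Jak2 and of the endogenous gene cannot be separated in this measurement.

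The 4 dKO libraries held between 24235647 and 48884329 recovered reads on genes, and all 8 held between 16846011 and 48884329. Of the defining markers fixed for a myeloid progenitor, Spi1, Myb and Prtn3 reached 1 FPKM in all 4 dKO clones, whereas Mpo, Elane, Ctsg, Ms4a3, Cd34, Kit and Cebpa stayed under 1 FPKM in every library. The labelled cell type therefore rested on a minority of its markers. All 6 markers of B and T lymphocytes and all 3 of fibroblasts were under 1 FPKM in every library. In bulk RNA, fewer cells of a type and less RNA per cell cannot be told apart.

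In the comparison of Jak2V617F dKO with Jak2WT dKO, 866 genes were called higher, 7.64% of those tested, and 1206 were called lower, 10.6% (limma on log2(FPKM + 1), adjusted p under 0.05). All log2 differences below are Jak2V617F minus Jak2WT on this scale, which understates the change of genes near 0. A log2 difference of at least 1 was reached by 211 of the genes called higher, 1.86% of all tested, and by 220 of those called lower, 1.94%. The values of the 2 clone pairs did not overlap for 6928 genes, 61.1%, so a lack of overlap between 2 clones and 2 clones says little on its own. The median log2 difference over all genes was -0.03. Of the genes called higher, 130 had passed the filter only through the Jak2V617F clones, and 110 of those called lower had passed only through the Jak2WT clones. The counts rested on the number of clones: without Jak2WT dKO clone 1 they were 290 higher and 369 lower, without Jak2WT dKO clone 3 they were 364 and 507, and without Jak2V617F dKO clone 1 they were 468 and 702.

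**Figure D1:**
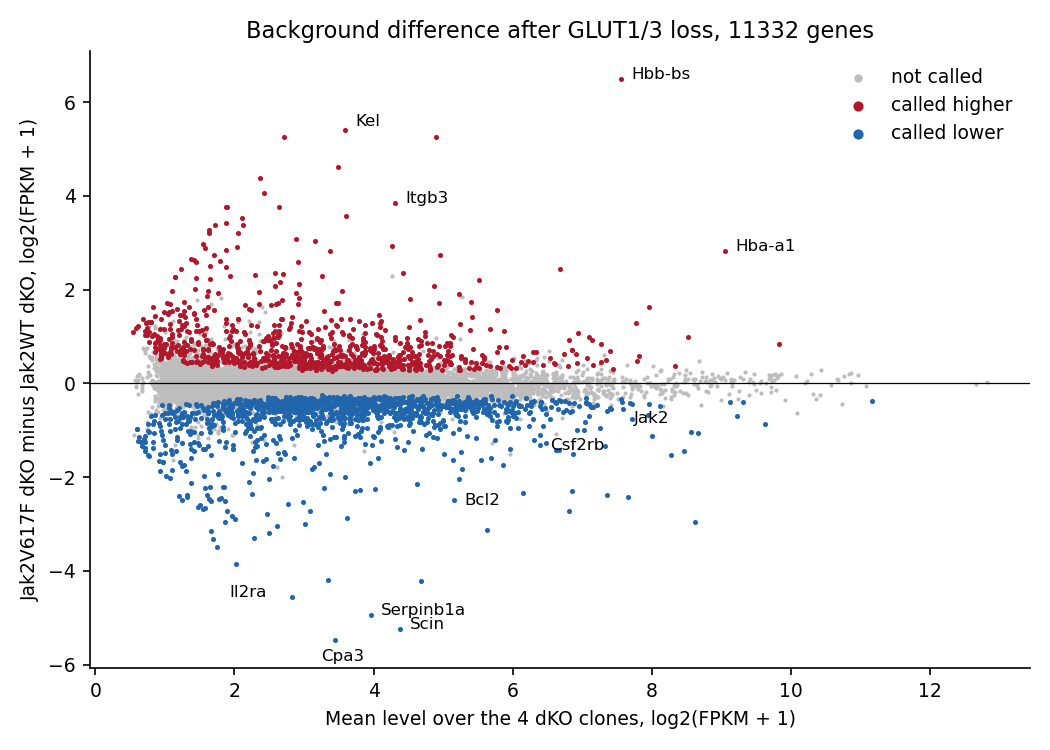
Difference between Jak2V617F dKO and Jak2WT dKO against mean level for the 11332 genes tested, one point per gene, both axes in log2(FPKM + 1). Red points are the 866 genes called higher and blue points the 1206 called lower; globin, red cell and megakaryocyte genes lead the upper edge and Cpa3, Scin, Serpinb1a and Il2ra the lower edge.

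Globin and red cell genes were among the largest positive differences. Hbb-bs, an adult beta-globin, was at 21.97 and 15.9 FPKM in the Jak2WT dKO clones 1 and 3 and at 2209 and 1437 FPKM in the Jak2V617F dKO clones 1 and 3, the largest difference of any gene tested (log2 6.50 ± 0.36 SE, adjusted p = 0.00016). Hba-a1, an adult alpha-globin, was already transcribed in the Jak2WT dKO clones, at 177 and 224 FPKM, and reached 2007 and 993 FPKM in the mutant clones (2.82 ± 0.37 SE, adjusted p = 0.0032). Hbb-bt, the other adult beta-globin, went from 4.13 and 3.58 FPKM to 376 and 89.00 FPKM (5.25 ± 0.62 SE, adjusted p = 0.0023). In each of these genes mutant clone 1 exceeded mutant clone 3, and both lay above both Jak2WT dKO clones.

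The embryonic globins followed the adult ones. Hbb-y, the embryonic epsilon-type beta-globin, was at 1.49 and 1.06 FPKM in Jak2WT dKO and at 109.9 and 26.6 FPKM in Jak2V617F dKO, with a log2 difference of 4.61. Hba-x, the zeta-type alpha-globin, was at 0.261 and 0.454 FPKM in Jak2WT dKO and 24.6 and 6.72 FPKM in Jak2V617F dKO, with a difference of 3.37, and Hbb-bh1 differed by 2.92. Of 11 globin genes in the table, 7 passed the filter and were called higher, against 7.64% over all genes. Hba-a2, Hba-x and Hbb-bh1 passed only through the Jak2V617F clones. All 4 that passed through both groups were called higher. Summed over the list, globin transcripts came to 207 and 246 FPKM in Jak2WT dKO and to 4754 and 2571 FPKM in Jak2V617F dKO. Adult globins are near-identical copies, so the split of reads between Hba-a1 and Hba-a2 or between Hbb-bs and Hbb-bt is uncertain.

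Most tested genes of the red cell membrane were higher as well. Kel, the Kell blood group endopeptidase, was at 1.19 and 0.563 FPKM in the Jak2WT dKO clones and at 85.7 and 69.1 FPKM in the Jak2V617F dKO clones (log2 difference 5.40 ± 0.17 SE, adjusted p = 1.2e-05). Ank1, an ankyrin of the membrane skeleton, was at 1.70 and 2.01 FPKM in Jak2WT dKO and 10.7 and 6.24 FPKM in Jak2V617F dKO, a difference of 1.69 ± 0.21 SE (adjusted p = 0.0026). In both genes the mutant clones lay above the Jak2WT pair. Of the 10 membrane genes that passed, 8 were called higher and 2 lower, against the 7.64% and 10.6% over all genes, and the median difference was 0.83. Rhag, the Rh-associated ammonia channel, differed by 1.56 and Rhd by 1.03. The 2 that fell were Xk, the partner of Kell (-0.50), and Cd47 (-0.57).

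Heme synthesis moved in part. Of 15 genes that passed, 6 were called higher and 0 lower, against 7.64% and 10.6% over all genes, with a median of 0.36. Alad, which joins aminolevulinate into porphobilinogen, was at 21.5 and 22.9 FPKM in Jak2WT dKO and 86.1 and 67.5 FPKM in Jak2V617F dKO (1.74 ± 0.14 SE, adjusted p = 0.0005). Tspo2, an erythroid translocator of the same family as Tspo that passed only through the Jak2V617F clones, differed by 1.69, and Fech, Abcb10 and Blvrb by between 0.53 and 0.69. The erythroid first enzyme Alas2 was under 1 FPKM in every library, and Alas1, the form used in other tissues, differed by -0.18 and was not called. Iron genes did not move the same way: of 9 that passed, 0 were called higher and Tfr2 (-1.39) and Slc11a2 (-0.47) were called lower.

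Megakaryocyte genes formed the other group at the upper end. Itgb3, the beta subunit of the platelet fibrinogen receptor, was at 4.29 and 4.17 FPKM in Jak2WT dKO and 107 and 51.2 FPKM in Jak2V617F dKO (3.84 ± 0.28 SE, adjusted p = 0.00037). Its alpha partner Itga2b was high in all 4 clones, at 80.4 and 87.00 FPKM in Jak2WT dKO and 184 and 172 FPKM in Jak2V617F dKO (1.08 ± 0.08 SE, adjusted p = 0.00042). Both subunits of this receptor were thus higher in the mutant clones without overlap.

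Platelet chemokines varied widely between the mutant clones. Pf4 was at 0.0486 and 0 FPKM in Jak2WT dKO and at 28.2 and 2.03 FPKM in Jak2V617F dKO, so that clone 1 was far above clone 3 while both were above the Jak2WT pair (3.20 ± 0.87 SE). Ppbp, its neighbour in function, differed by 2.84. Pf4, Ppbp, Gp5 and Selp passed the filter only through the Jak2V617F clones and so had to be higher there. The von Willebrand receptor subunits Gp5 (2.30), Gp9 (1.17) and Gp1ba (0.78) and the adhesion protein Selp (2.25) were also called higher. Of 22 genes of this list in the table, 12 passed, 5 of them only through the Jak2V617F clones, and 10 were called higher and 1 lower. Of the 7 that passed through both groups, 5 were called higher and 1 lower, against 7.64% and 10.6% over all genes. The exception was F2r, the thrombin receptor, which was at 846 and 677 FPKM in Jak2WT dKO and 499 and 436 FPKM in Jak2V617F dKO (-0.70 ± 0.13 SE, adjusted p = 0.012), while Vwf and Gp1bb were near or at 0 in all libraries.

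Transcription factors of the erythroid and megakaryocytic lineages had smaller differences than the globins. Lmo2, a bridging protein of the GATA1 and TAL1 complex, was at 17.9 and 18.9 FPKM in Jak2WT dKO and 70.7 and 72.05 FPKM in Jak2V617F dKO (1.90 ± 0.10 SE, adjusted p = 0.00014). Zfpm1, the GATA1 cofactor FOG1, differed by 0.92, Gfi1b by 0.85, Gata1 itself by 0.48 and Tal1 by 0.44, and all were called higher. Klf1, the activator of adult beta-globin, was at 13.3 and 15.4 FPKM in Jak2WT dKO and 23.6 and 18.3 FPKM in Jak2V617F dKO, which did not pass the test (adjusted p = 0.1). Cebpe, a factor for late granulocyte genes, was at 31.5 and 28.1 FPKM in Jak2WT dKO and at 4.20 and 6.80 FPKM in Jak2V617F dKO (-2.27 ± 0.18 SE, adjusted p = 0.00044). With Myb (-0.83) it was 1 of 2 among 22 lineage factors called lower, against 8 called higher, where the shares over all genes were 10.6% and 7.64%.

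Because lineage genes moved together, the bases before the start of 6 of them are shown, chosen for a GATA or STAT motif in the window. Sequences are from RefSeq on GRCm38.p6, read on the gene's strand up to the base before the start, with AGATAA or its reverse complement in capitals in the first 5 and TTCNNNGAA in capitals in the last. Hbb-bs (chr7:103827929-103828178, minus strand), Kel (chr6:41704326-41704445, minus strand) and Gp5 (chr16:30310782-30310901, minus strand) were higher in the mutant dKO clones, and Cpa3 (chr3:20242182-20242301, minus strand), S100a9 (chr3:90695722-90695841, minus strand) and Csf2rb2 (chr15:78305722-78305841, minus strand) were lower.
Hbb-bs: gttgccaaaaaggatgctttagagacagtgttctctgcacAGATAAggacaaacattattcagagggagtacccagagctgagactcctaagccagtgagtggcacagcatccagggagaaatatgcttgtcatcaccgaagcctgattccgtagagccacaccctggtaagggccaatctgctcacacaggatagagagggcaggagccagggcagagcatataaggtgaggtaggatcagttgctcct
Kel: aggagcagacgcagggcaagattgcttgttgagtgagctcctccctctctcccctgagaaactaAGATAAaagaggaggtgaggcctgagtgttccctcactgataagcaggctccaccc
Gp5: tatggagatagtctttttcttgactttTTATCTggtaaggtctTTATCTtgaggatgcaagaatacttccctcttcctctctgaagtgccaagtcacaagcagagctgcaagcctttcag
Cpa3: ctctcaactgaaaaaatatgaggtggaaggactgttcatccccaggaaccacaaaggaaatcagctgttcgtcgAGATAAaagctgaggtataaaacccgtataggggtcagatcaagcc
S100a9: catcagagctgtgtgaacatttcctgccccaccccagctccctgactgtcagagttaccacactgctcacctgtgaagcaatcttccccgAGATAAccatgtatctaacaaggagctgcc
Csf2rb2: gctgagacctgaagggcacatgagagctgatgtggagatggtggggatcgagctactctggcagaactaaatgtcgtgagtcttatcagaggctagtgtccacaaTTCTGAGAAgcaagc
The GATA match began 210 bases before the start in Hbb-bs, 56 in Kel, 93 and 77 in Gp5, 46 in Cpa3 and 30 in S100a9, and the STAT match 15 bases before the start in Csf2rb2. AGATAA on either strand was held by 5.87% of the 10113 windows of 250 bases of tested genes, by 10.1% of 178 windows of genes called higher with a log2 difference of at least 1 and by 10.5% of 200 windows of genes called lower to the same degree. TTCNNNGAA was held by 5.99% of all windows, by 12 of these 178 and by 22 of these 200, and the hypoxia motif ACGTG by 22.8% of all, 23 of 178 and 42 of 200. The 2 strong directions held AGATAA at about the same share. Windows came from 7991 of the 11332 genes, and a match of letters is a description of the window and not a bound site.

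Cpa3 and several granulocyte genes were at the lower end. Cpa3, the carboxypeptidase of mast cells, was at 100.5 and 50.8 FPKM in the Jak2WT dKO clones 1 and 3 and at 0 and 1.67 FPKM in the Jak2V617F dKO clones 1 and 3, the lowest difference of all genes (log2 -5.47 ± 0.46 SE, adjusted p = 0.00054). Serpinb1a, an inhibitor of neutrophil elastase, was at 110.2 and 65.96 FPKM in Jak2WT dKO and 0.225 and 5.39 FPKM in Jak2V617F dKO (-4.95 ± 0.67 SE, adjusted p = 0.0037). S100a9, a calprotectin subunit of neutrophils, was at 56.8 and 31.4 FPKM in Jak2WT dKO and 0.165 and 3.80 FPKM in Jak2V617F dKO (-4.19 ± 0.67 SE, adjusted p = 0.007). In all of these mutant clone 3 kept more transcript than mutant clone 1, and neither reached the Jak2WT dKO clones. Of 20 mast cell and basophil genes listed, 5 passed the filter. Cpa3 and the proteoglycan Srgn, also a granule gene, were called lower and 0 higher, against 10.6% and 7.64% over all genes. The lower count fell when Jak2WT dKO clone 1 or Jak2WT dKO clone 3 was left out. The 5 defining markers of these cells other than Cpa3 were under 1 FPKM in every library.

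Secondary granule proteins shared this order. Ngp was at 39.1 and 26.5 FPKM in Jak2WT dKO and 1.11 and 8.76 FPKM in Jak2V617F dKO (-2.87), Ltf, which encodes lactoferrin, differed by -2.96, and the collagenase Mmp8 by -2.43. Of 10 mature neutrophil genes that passed, 6 were called lower, against 10.6% over all genes, and 1 higher, the chemokine receptor Cxcr2 (1.20), and Ltf and Mmp8, like Prss57 and Cstdc5 named next, had passed the filter only through the Jak2WT clones, leaving 4 lower among the 8 that passed through both groups. Of 6 primary granule genes that passed, 5 were called lower, among them Prss57 (-1.27), the proteoglycan Srgn (-0.59) and the chaperone Calr (-0.87), while Prtn3 was at 3.11 and 5.80 FPKM in Jak2WT dKO and 4.92 and 10.2 FPKM in Jak2V617F dKO and was not called. The cysteine protease inhibitors Stfa2l1 (-3.01) and Cstdc5 (-3.29) fell as well; they belong to a family of near-identical genes, so the split of their reads is uncertain.

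Of 6 monocyte and macrophage genes that passed, 3 were called lower and 1 higher, against 10.6% and 7.64% over all genes. Ccr2, the receptor for the monocyte chemokine CCL2, was at 0.269 and 0.345 FPKM in Jak2WT dKO and 22.7 and 19.4 FPKM in Jak2V617F dKO, higher in the mutant clones by 4.07 ± 0.12 SE (adjusted p = 1.2e-05). It had passed the filter only through the Jak2V617F clones and so had to differ. Adgre1, the F4/80 antigen, was at 59.5 and 48.3 FPKM in Jak2WT dKO and 16.3 and 20.3 FPKM in Jak2V617F dKO, with a difference of -1.51 ± 0.18 SE (adjusted p = 0.0022). Cd68 (-1.20) and the Fc receptor Fcgr1 (-0.62) were also called lower, and Csf1r and Cd14 were under 1 FPKM in every library.

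**Figure D2:**
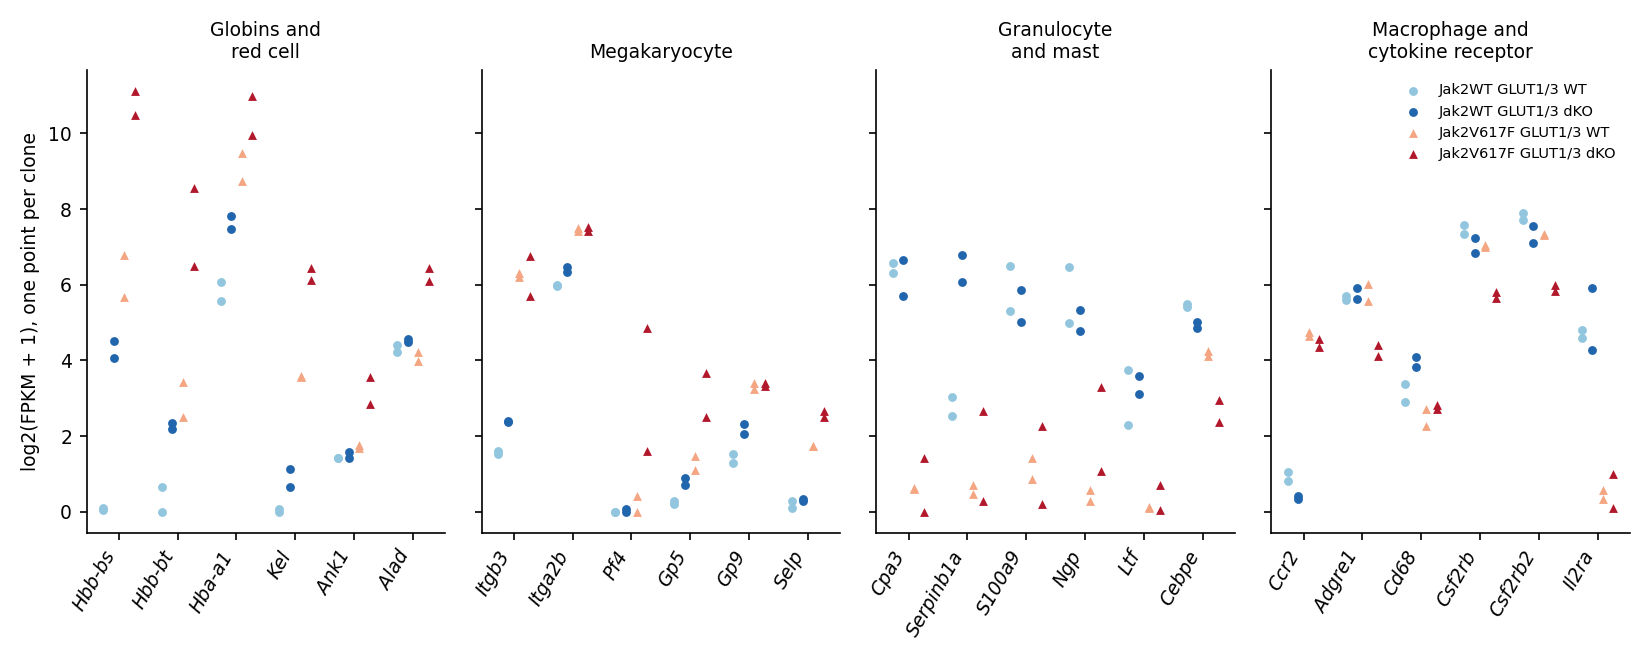
Levels of 24 lineage genes in log2(FPKM + 1), one point per clone, in the 4 groups (circles Jak2WT, triangles Jak2V617F, pale GLUT1/3 WT, dark GLUT1/3 dKO). The dark triangles of globin, red cell and megakaryocyte genes lie above the dark circles, and those of Cpa3, granulocyte and cytokine receptor genes below them, with Ccr2 above; Pf4 and Hbb-bt show the widest gaps between the mutant dKO clones among the higher genes.

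Other genes at the ends of the range belong to no single lineage. Oaf was listed at 0 in both Jak2WT dKO clones and was at 12.3 and 13.04 FPKM in the Jak2V617F dKO clones. Parvb, the focal adhesion protein beta-parvin, was at 2.53 and 2.49 FPKM in Jak2WT dKO and 50.7 and 32.8 FPKM in Jak2V617F dKO (3.57 ± 0.21 SE, adjusted p = 0.00016), and Fhip1a was at 0.377 and 1.07 FPKM in Jak2WT dKO and 31.4 and 15.1 FPKM in Jak2V617F dKO. Cylc1, Tcp11x2 and Sval1, which are known from the male reproductive tract, were at 0 to 0.532 FPKM in Jak2WT dKO and at 7.06 to 47.6 FPKM in Jak2V617F dKO. These and Oaf had passed the filter only through the Jak2V617F clones and so had to differ. Of the 15 genes with the largest positive difference, 2 were long noncoding RNAs without a described function.

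At the other end, Scin, an actin-severing protein, was at 137 and 116 FPKM in Jak2WT dKO and at 0.163 and 8.75 FPKM in Jak2V617F dKO (-5.24 ± 0.99 SE, adjusted p = 0.013). Tarm1, an activating receptor of myeloid cells, was at 15.6 and 13.4 FPKM in Jak2WT dKO and 0.0278 and 0.096 FPKM in Jak2V617F dKO (-3.86), and the single-strand DNA-binding protein Radx was at 13.3 and 7.98 FPKM and listed at 0 in both mutant clones. St6gal1, which adds terminal sialic acid to glycoproteins, differed by -3.31. The melanocortin receptor Mc5r was at -4.21, the R-spondin receptor Lgr4 at -3.20, Gpr34 at -3.15 and Gpr141 at -3.04. All of these had non-overlapping clone pairs, as the rule for naming them required, and Tarm1, Radx, St6gal1, Lgr4 and Gpr34 had passed the filter only through the Jak2WT clones. Among the 15 largest negative differences was 1 long noncoding RNA.

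Cytokine receptors were more often lower than higher in the mutant clones. Csf2rb, the common beta chain for interleukin-3, interleukin-5 and GM-CSF, was at 150.02 and 114 FPKM in Jak2WT dKO and at 55.4 and 48.9 FPKM in Jak2V617F dKO (-1.31 ± 0.14 SE, adjusted p = 0.0018). Csf2rb2, the interleukin-3-specific beta chain, was at 186 and 136 FPKM in Jak2WT dKO and 62.5 and 56.2 FPKM in Jak2V617F dKO (-1.41 ± 0.15 SE, adjusted p = 0.0015), and the pair is so alike in sequence that their shares are uncertain. The alpha chain Il3ra differed by 0.04 and was not called. Epor, the erythropoietin receptor, was at 3.68 and 3.31 FPKM in Jak2WT dKO and 7.77 and 6.54 FPKM in Jak2V617F dKO, higher by 0.86 (adjusted p = 0.0051). Of 14 such receptors that passed, 2 were called higher and 6 lower, against 7.64% and 10.6% over all genes, among the latter Ifngr1 (-0.93), Il18rap (-0.74), Tnfrsf1a (-0.46) and Ifnar1 (-0.32).

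Of 10 JAK and STAT genes, 3 were called higher and 3 lower, against 7.64% and 10.6% over all genes. Jak3 (0.59), Stat2 (0.54) and Stat3 (0.48) were higher, and Jak1 (-0.49), Jak2 and Stat5b (-0.57) lower, while Stat5a differed by 0.03. Of 18 genes that STAT5 is known to induce, 4 were called higher and 3 lower, and these counts were 7 and 3 with voom or without Jak2V617F dKO clone 3 and 2 and 1 without Jak2WT dKO clone 1. Il2ra, the interleukin-2 receptor alpha chain, was at 59.3 and 18.4 FPKM in Jak2WT dKO and 0.0705 and 0.986 FPKM in Jak2V617F dKO (-4.55 ± 0.50 SE, adjusted p = 0.0017), and as it had passed the filter only through the Jak2WT clones it had to differ. The feedback inhibitors Cish (-0.14), Socs2 (-0.08) and Socs1 (-0.45) and the kinase Pim1 (0.09) were not called. Gadd45g (1.68) and the survival gene Bcl2l1 (1.26) were called higher.

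Survival genes of the BCL2 family moved in both directions. Bcl2 was at 89.6 and 77.8 FPKM in Jak2WT dKO and at 10.5 and 18.6 FPKM in Jak2V617F dKO (-2.49 ± 0.23 SE, adjusted p = 0.00092). Bcl2l1, which encodes BCL-XL, was at 24.5 and 22.4 FPKM in Jak2WT dKO and 69.6 and 47.8 FPKM in Jak2V617F dKO (1.26 ± 0.18 SE, adjusted p = 0.0048). Bcl2l11, the pro-apoptotic BIM, was at 1.92 and 2.13 FPKM in Jak2WT dKO and 6.38 and 4.66 FPKM in Jak2V617F dKO (1.10 ± 0.14 SE, adjusted p = 0.0027). Among 29 family members and caspases, 4 were called higher and 7 lower, against 7.64% and 10.6% over all genes and 7 in each direction with voom, with Bnip3 (-1.20) among the latter and Mcl1 (-0.08) not called. Of 20 p53 targets, 6 were called higher and 0 lower, or 10 higher with voom and 3 in a fit of the 4 dKO libraries alone. They were led by Btg2 (1.08), Ccng1 (0.98) and Trp53inp1 (0.88), while Cdkn1a (0.20) and Mdm2 (0.33) were not called. Over all genes, voom called 1338 higher and 1329 lower, and the 4 dKO libraries alone 457 and 637.

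**Figure D3:**
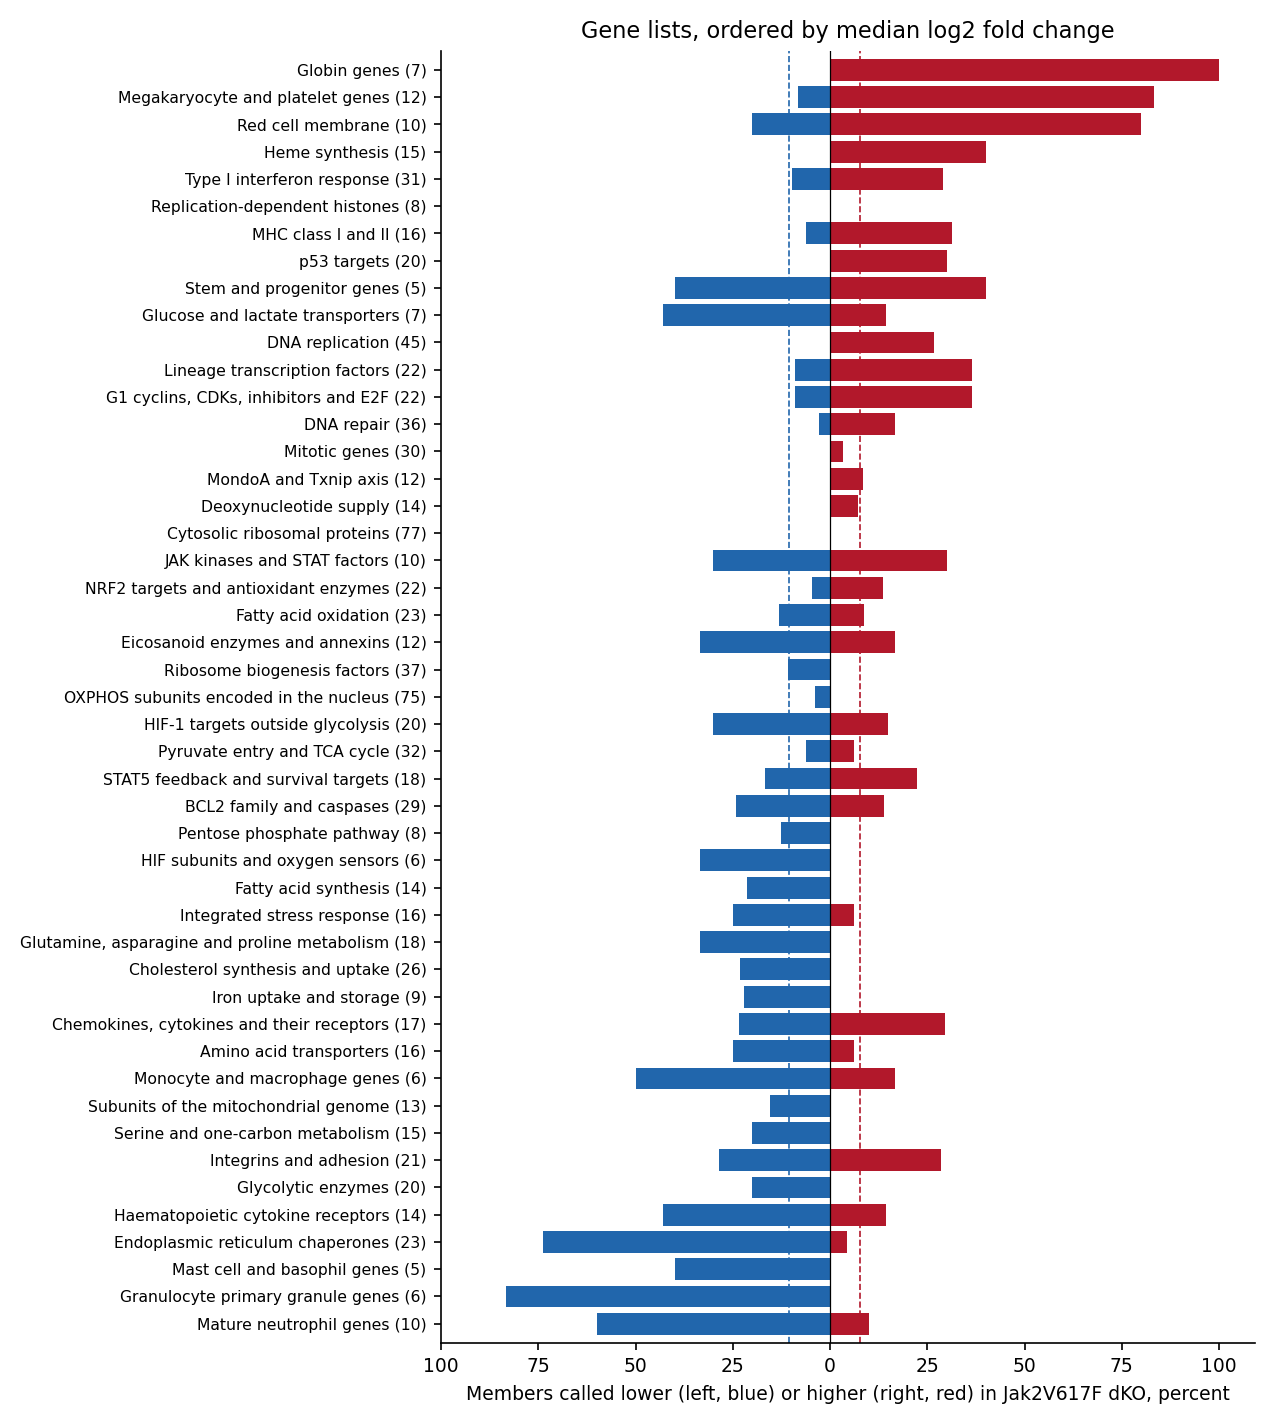
Share of the tested members of each gene list called higher (red, right) or lower (blue, left) in Jak2V617F dKO against Jak2WT dKO, in percent, with the number of members that passed the filter in parentheses and lists of at least 5 ordered by median difference. Dashed lines are the shares over all genes, 7.64% higher and 10.6% lower; globin, megakaryocyte and red cell lists stand far to the right and endoplasmic reticulum, granule and neutrophil lists far to the left.

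Counts per list depended on the clones to different degrees, and the counts over all genes given above changed in the same fits. With 1 library left out, 6 or 7 globin genes, 7 or 8 red cell membrane genes and 6 to 9 megakaryocyte genes were called higher. Mature neutrophil genes called lower numbered 3 to 6, with 3 without Jak2WT dKO clone 1 or Jak2V617F dKO clone 1. Without Jak2WT dKO clone 1, 2 heme synthesis genes, 3 lineage factors and 3 p53 targets were called higher, and 3 cytokine receptors and 4 BCL2 family members lower. Without Jak2WT dKO clone 3 the same counts were 3, 3, 4, 3 and 4. Without Jak2V617F dKO clone 1, 3 heme synthesis genes and 4 lineage factors were called higher.

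Most endoplasmic reticulum chaperones were lower. Of 23 genes, 17 were called lower and 1 higher, against 10.6% lower over all genes, and the median difference was -0.51. P4hb, a protein disulfide isomerase, was at 544 and 541 FPKM in Jak2WT dKO and 240.03 and 286 FPKM in Jak2V617F dKO (-1.05 ± 0.12 SE, adjusted p = 0.0018). Hspa5, the chaperone BiP, was at 649 and 629 FPKM in Jak2WT dKO and 472 and 499.6 FPKM in Jak2V617F dKO (-0.40 ± 0.11 SE, adjusted p = 0.049). Pdia4 (-0.95), Calr (-0.87), Edem1 (-0.82) and the stress factor Xbp1 (-0.61) were lower too, and the sensor Atf6 was the gene called higher (0.43). The count of lower calls lay between 9 and 18 with 1 library left out, lowest without Jak2WT dKO clone 1.

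Some lipid synthesis genes were also called lower. Of 26 genes of cholesterol synthesis and uptake, 6 were called lower and 0 higher, against 10.6% and 7.64% over all genes, among them Cyp51 (-0.75) and Hmgcs1 (-0.63). Of 14 fatty acid synthesis genes, 3 were called lower and 0 higher, with the desaturase Scd2 at -1.11 and the elongase Elovl5 at -0.91. With single dKO libraries left out, the cholesterol count fell to between 0 and 1 without Jak2WT dKO clone 1, Jak2WT dKO clone 3 or Jak2V617F dKO clone 1.

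Glucose-handling genes that were called were mostly lower. Hk3, a hexokinase of myeloid cells, was at 141 and 179 FPKM in Jak2WT dKO and at 14.05 and 64.7 FPKM in Jak2V617F dKO (-2.35 ± 0.57 SE, adjusted p = 0.031). Of 20 glycolytic genes, 4 were called lower and 0 higher, against the 10.6% and 7.64% over all genes, the others being Pgam1 (-0.75), Pfkl (-0.57) and Hk2 (-0.54), and the median was -0.27. Ldha (-0.35), Pkm (-0.18) and Eno1 (0.04) were not called. Of 7 glucose and lactate transporter genes that passed, 3 were called lower and 1 higher, the edited gene Slc2a1. Slc16a1, which carries lactate and pyruvate, was lower (-0.68), as were its chaperone Bsg (-0.53) and the hexose carrier Slc2a6 (-0.69), which had passed the filter only through the Jak2WT clones. Without Jak2WT dKO clone 1, 0 glycolytic genes and 0 transporters were called; without Jak2WT dKO clone 3 it was 2 and 1, all lower, and without Jak2V617F dKO clone 1 it was 6 and 0.

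Oxygen sensing and stress genes had more lower than higher calls. Hif1a was at 30.03 and 27.9 FPKM in Jak2WT dKO and 20.1 and 18.96 FPKM in Jak2V617F dKO (-0.55, adjusted p = 0.0045), and the hydroxylase Egln1 differed by -0.88. Of 20 HIF-1 targets outside glycolysis, 6 were called lower, against 10.6% over all genes, with Bnip3 and the oxidoreductase Ero1a (-1.17) at the end of the range, and 3 higher, against 7.64%, Ndrg1 (1.38), Narf (1.17) and Ddit4 (0.48). Of 16 integrated stress response genes, 4 were called lower, led by Nupr1 (-2.12), which had passed only through the Jak2WT clones, and Atf5 (-0.77), and Cebpb (0.82) was called higher. The cystine carrier Slc7a11 (-1.24) led 4 of 16 amino acid transporters called lower. Glutamine, asparagine and proline enzymes had 6 of 18 called lower and 0 higher, among them Gls2 (-0.75), Gpt2 (-0.73) and Oat (-0.71), while Asns was not called. Without Jak2WT dKO clone 1, 1 of these enzymes, 1 stress response gene and 0 of the transporters were called lower, without Jak2WT dKO clone 3 the counts were 3, 2 and 0, and without Jak2V617F dKO clone 1 they were 4, 1 and 3.

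Of 75 nuclear subunits of oxidative phosphorylation (OXPHOS), 3 were called lower and 0 higher, against 10.6% and 7.64% over all genes, with a median of -0.06, and of 13 subunits of the mitochondrial genome 2 were called lower. With libraries scaled to the same total FPKM the nuclear count was 4 higher and 3 lower, and without Jak2WT dKO clone 1 or without Jak2WT dKO clone 3 it was 0 in both directions. Of 32 genes of pyruvate entry and the TCA cycle, 2 were called higher and 2 lower, among them Mpc2 (1.26), a subunit of the mitochondrial pyruvate carrier, and Idh2 (-0.83). Of 77 ribosomal proteins, 0 were called at an adjusted p under 0.05 by limma on FPKM, 8 had an unadjusted p under 0.05, and 5 and 11 were called higher with libraries scaled to the same total and with voom on recovered reads.

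DNA replication genes were on the higher side in the mutant dKO clones. Of 45 genes, 12 were called higher and 0 lower, against 7.64% higher over all genes, and the median difference was 0.22. Pcna, the sliding clamp, was at 122 and 147 FPKM in Jak2WT dKO and at 191 and 192 FPKM in Jak2V617F dKO (0.51 ± 0.13 SE, adjusted p = 0.032). Clspn, the checkpoint adaptor claspin, was at 13.1 and 19.4 FPKM in Jak2WT dKO and 24.05 and 25.3 FPKM in Jak2V617F dKO (0.60 ± 0.16 SE, adjusted p = 0.041). The helicase subunits Mcm6 (0.37) and Mcm5 (0.30) illustrate the edge of the test, the former called and the latter not. The count fell to 0 without Jak2WT dKO clone 1 and to 4 without either Jak2V617F dKO clone.

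Among cell cycle regulators, 8 of 22 were called higher and 2 lower, against 7.64% and 10.6% over all genes. E2f2 was at 4.94 and 5.42 FPKM in Jak2WT dKO and 26.1 and 14.2 FPKM in Jak2V617F dKO (1.71 ± 0.24 SE, adjusted p = 0.0044), E2f1 differed by 0.74, and the inhibitor Cdkn2d by 0.89. Cdk6, a G1 kinase, was at 90.99 and 86.2 FPKM in Jak2WT dKO and 26.5 and 31.2 FPKM in Jak2V617F dKO (-1.59 ± 0.12 SE, adjusted p = 0.00039), and E2f5 differed by -1.11. Without Jak2WT dKO clone 1, 3 of these regulators were called higher. Of 30 mitotic genes, 1 was called higher, or 4 with voom or without Jak2V617F dKO clone 1, and DNA repair had 6 of 36 higher and 1 lower, with 1 higher without Jak2WT dKO clone 1 and 2 without Jak2V617F dKO clone 1.

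Interferon and antigen presentation genes had calls in both directions. Of 31 interferon-response genes that passed, 4 of them only through the Jak2V617F clones (Oasl2 and Mx1 among them), 9 were called higher and 3 lower, and of the 27 that passed through both groups 6 and 3, against 7.64% and 10.6% over all genes. Oasl2 (1.24), Mx1 (1.19) and Ifit2 (0.82) were higher, and the 3 lower ones were the membrane proteins Ifitm1 (-2.96), Ifitm3 (-1.13) and Ifitm2 (-0.91). Ifitm1 was at 992 and 1208 FPKM in Jak2WT dKO and at 109 and 180.4 FPKM in Jak2V617F dKO (adjusted p = 0.00044). Of 16 MHC genes, 5 were called higher and 1 lower, with the peptide transporter Tap1 at 0.81 and B2m, which was not called, at 0.09. Without either Jak2WT dKO clone the interferon count was 3 higher and 3 lower.

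Adhesion and signalling genes changed in both directions. Besides Itgb3 and Itga2b, Itga6 (2.16), Itgal (1.25) and Itgb2 (1.12) were higher, while Itga4 (-0.73) and the tetraspanin Cd81 (-1.20) were lower, in a list with 6 of 21 called in each direction, against 7.64% higher and 10.6% lower over all genes. Ptgs1, the constitutive cyclooxygenase, was at 18.4 and 22.6 FPKM in Jak2WT dKO and 97.8 and 96.9 FPKM in Jak2V617F dKO (2.198 ± 0.121 SE, adjusted p = 0.00016). Anxa1, a phospholipid-binding protein of myeloid cells, was at 17.8 and 10.2 FPKM in Jak2WT dKO and 0.721 and 1.58 FPKM in Jak2V617F dKO (-2.78 ± 0.31 SE, adjusted p = 0.0019). The chemokine Ccl6 (-1.99), Lta (-1.42) and Csf1 (-1.30) were lower, the last 2 having passed only through the Jak2WT clones, and Tnfsf4 (1.24) was higher.

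The same background difference was then read in the clones with intact transporters, which share no library with the dKO clones. There 1769 genes were called higher, 15.6%, and 1718 lower, 15.2%. Of the 866 genes called higher after GLUT1/3 loss, 428 were also called higher with intact transporters and 61 lower, and of the 1206 called lower, 509 were also lower and 61 higher. Across the 11332 genes, the 2 differences had a Pearson r of 0.565 and a Spearman rho of 0.340, given as a description, since genes within a clone are not independent. Several lineage genes at the ends of the range differed in both states: Hbb-bs differed by 6.16 with intact transporters and by 6.50 without, Itgb3 by 4.69 and 3.84, Ccr2 by 3.77 and 4.07, and Cpa3 by -5.82 and -5.47. Whether these differences changed with GLUT1/3 loss depended on the scale. Hbb-bs was at 0.0329 and 0.0751 FPKM in Jak2WT and at 109.8 and 50.5 FPKM in Jak2V617F with intact transporters, far below the dKO clones of the same background, and its Jak2WT pair lay under the pseudocount of 1. The interaction described next was 0.34 for Hbb-bs (adjusted p = 0.69), but with a pseudocount of 0.1 it was -2.37 (adjusted p = 0.037) and with voom -3.27 (adjusted p = 0.4), so that no direction can be given for it. For Ccr2 it was 0.30 (adjusted p = 0.27), against 1.05 (adjusted p = 0.048) with a pseudocount of 0.1 and 1.34 (adjusted p = 0.029) with voom. It was not called for Itgb3 (-0.85) or Cpa3 (0.35), but that of Itgb3 was called without Jak2V617F dKO clone 1 (-1.37, adjusted p = 0.014) and that of Cpa3 changed sign with a pseudocount of 0.1 (-0.34) and with voom (-2.05).

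The interaction term tests whether the background difference itself changed with GLUT1/3 loss. It was called higher for 555 genes, 4.9%, and lower for 710 genes, 6.27%, and 480 of them were among the genes called in the dKO comparison. The median interaction over all genes was -0.04 as reported, 0.12 with libraries scaled to the same total FPKM and 0.11 with voom on recovered reads. Voom also changes the offset and the weights. The split of calls differed between these settings, with 1198 higher and 399 lower for the same total and 1348 and 571 for voom. It also depended on single clones, since 1 higher and 3 lower were called without Jak2WT GLUT1/3 WT clone 3, 53 and 53 without Jak2WT GLUT1/3 WT clone 1, and 54 and 63 without Jak2WT dKO clone 1.

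**Figure D4:**
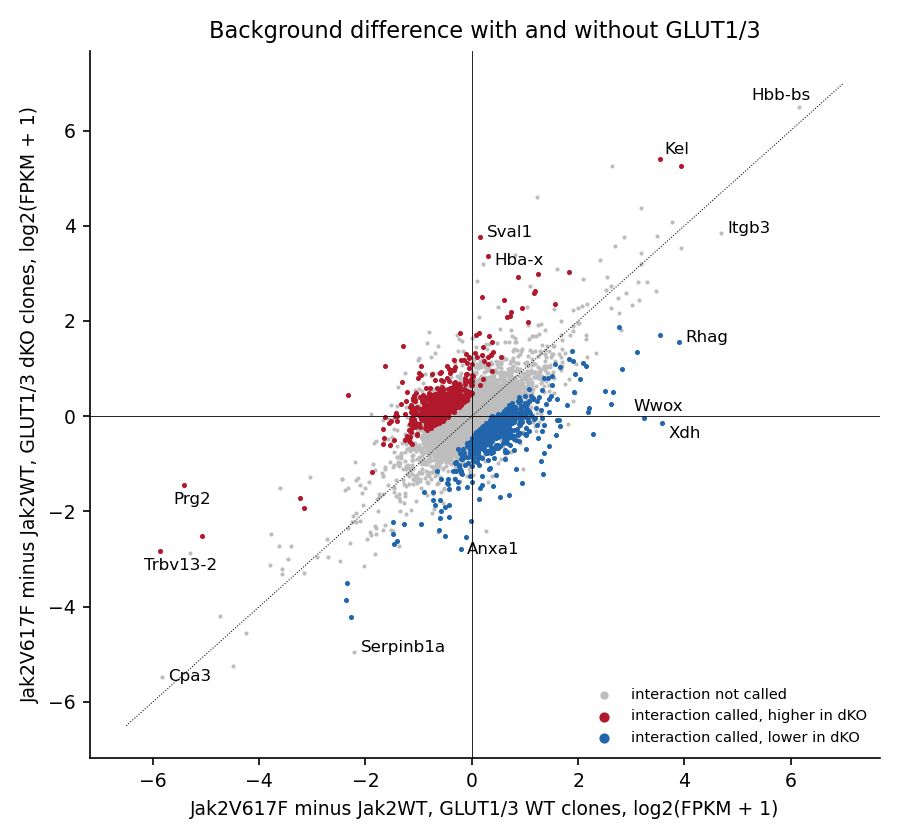
Background difference (Jak2V617F minus Jak2WT, log2(FPKM + 1)) in GLUT1/3 dKO clones against the same in GLUT1/3 WT clones, one point per gene, with the line of equality dotted. Red and blue points are the 555 and 710 genes with a called interaction; on this scale, on which a pseudocount of 1 shortens differences of genes near 0, Hbb-bs and Cpa3 lie close to the line, Kel, Sval1 and Hba-x above it and Anxa1, Xdh, Wwox and Rhag below it. With a pseudocount of 0.1 the interaction of Hbb-bs is -2.37.

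Some red cell and megakaryocyte genes had a called interaction, in both directions. Kel was at 0 and 0.0624 FPKM in Jak2WT and at 10.8 and 11.05 FPKM in Jak2V617F with intact transporters, and the interaction was 1.87 ± 0.24 SE (adjusted p = 0.0096). Both Jak2WT clones were near 0 here, and the sign of the Kel term turned to -0.052 with a pseudocount of 0.1 and to -2.796 with voom, so that no direction can be given for it. Alad differed by -0.22 with intact transporters and by 1.74 in dKO (interaction adjusted p = 0.0082). Rhag went the other way, with 3.90 and 1.56 (adjusted p = 0.0082), as did Gp9, with 1.90 and 1.17 (adjusted p = 0.043), whose call was lost with libraries scaled to the same total and with any 1 library left out. All of the interaction calls named here except that of Rhag were lost without Jak2WT GLUT1/3 WT clone 3.

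The 10 largest interactions included genes outside these lists. Prg2, the major basic protein of eosinophils, was at 89.4 and 62.7 FPKM in Jak2WT and 0.334 and 1.40 FPKM in Jak2V617F with intact transporters, and at 28.7 and 18.4 FPKM in Jak2WT dKO and 4.91 and 12.2 FPKM in Jak2V617F dKO, so its gap narrowed (interaction 3.96 ± 0.61 SE, adjusted p = 0.015). Xdh, xanthine dehydrogenase, was at 11.2 and 14.7 FPKM in the Jak2V617F GLUT1/3 WT clones and at 1.94 and 1.41 FPKM in Jak2WT dKO and 0.916 and 1.99 FPKM in Jak2V617F dKO (-3.73 ± 0.33 SE, adjusted p = 0.0082). Wwox, an oxidoreductase with WW domains, was at 26.8 and 23.01 FPKM in the Jak2V617F GLUT1/3 WT clones and at 1.48 and 1.58 FPKM in the Jak2V617F dKO clones (-3.27 ± 0.15 SE, adjusted p = 0.00053). Sval1, listed at 0 in all 4 Jak2WT clones, and Hba-x were higher in the mutant dKO clones than in any other group, though both calls were lost with voom (adjusted p = 0.17 for Sval1 and 0.52 for Hba-x) and that of Hba-x also with a pseudocount of 0.1 (adjusted p = 0.057), and Trbv13-2, a T cell receptor segment, was high in the Jak2WT GLUT1/3 WT clones, at 54.5 and 60.5 FPKM. The other 4 were 1 microRNA gene, 1 small nuclear RNA, 1 pseudogene and 1 long noncoding RNA. Without Jak2WT GLUT1/3 WT clone 3, Wwox kept its call and Prg2, Xdh, Sval1, Hba-x and Trbv13-2 lost theirs.

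DNA replication had the highest share of called interactions on the higher side among lists with at least 5 tested genes. Of 45 genes, 37 were called higher in the interaction and 0 lower, against 4.9% over all genes, and the median background difference went from -0.69 with intact transporters to 0.22 in dKO. Mcm4 was at 58.3 and 62.5 FPKM in Jak2WT and 25.7 and 21.5 FPKM in Jak2V617F with intact transporters and at 61.7 and 69.6 FPKM in Jak2WT dKO and 75.9 and 81.1 FPKM in Jak2V617F dKO. The mutant clones were the lower ones in the first state and the higher ones in the second, where the difference did not pass the test (0.26, adjusted p = 0.15). Counts over all genes changed between settings too: of 11332 genes, higher interactions numbered 555 as reported, 1198 with the same total and 1348 with voom. They also changed with single clones left out, as given above. Deoxynucleotide supply had 8 of 14 called higher, among them Rrm2 (-1.44 and 0.01), DNA repair 16 of 36 and mitotic genes 14 of 30, with 0 lower in each. Without Jak2WT GLUT1/3 WT clone 3 these 3 counts were 0, without Jak2WT GLUT1/3 WT clone 1 or without Jak2WT dKO clone 1 they were 2, 3 and 1, and with voom they were 11, 27 and 23. With libraries scaled to the same total they were 9, 25 and 21, without Jak2V617F GLUT1/3 WT clone 1 they were 7, 7 and 3, without Jak2V617F GLUT1/3 WT clone 3 they were 6, 10 and 5, and without Jak2WT dKO clone 3 they were 6, 13 and 7. The replication count was 41 under both other scalings, and with 1 library left out it was 0 without Jak2WT GLUT1/3 WT clone 3, 11 without Jak2WT GLUT1/3 WT clone 1, 10 without Jak2WT dKO clone 1 and between 27 and 35 otherwise.

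Called interactions in some lists of protein synthesis and nutrient import were of the other sign, though most members of these lists had none. Of 77 ribosomal proteins, 13 were called lower and 0 higher, and of 37 ribosome biogenesis factors 10 were called lower and 0 higher, against 6.27% over all genes. Of 16 amino acid transporters, 5 were lower, with Slc7a11 at 0.46 with intact transporters and -1.24 in dKO and Slc38a2 at 1.02 and -0.41. Atf5 went from 1.36 to -0.77 and Atf4 from 0.72 to -0.26, and 5 of 16 integrated stress response genes were lower in all. Of 16 MHC genes, 8 were lower, with B2m going from 1.45 to 0.09. With libraries scaled to the same total and with voom, the ribosomal count was 8 and 13, the MHC count was 4 and 7, and each of these lists had 0 calls without Jak2WT GLUT1/3 WT clone 3. Ribosomal proteins also had 0 calls without Jak2WT GLUT1/3 WT clone 1 or Jak2WT dKO clone 1, where biogenesis factors had 0 and 2.

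**Figure D5:**
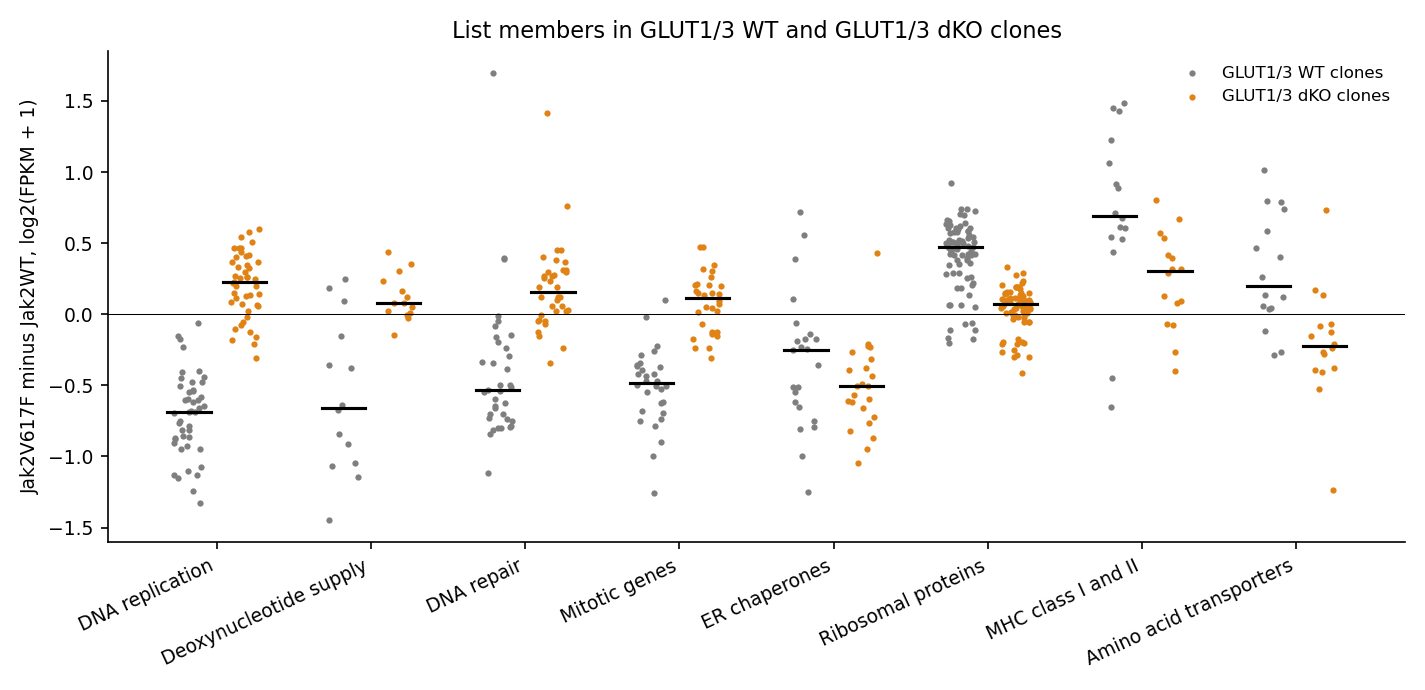
Background difference (Jak2V617F minus Jak2WT, log2(FPKM + 1)) of the tested members of 8 lists in GLUT1/3 WT clones (grey) and GLUT1/3 dKO clones (orange), one point per gene with black bars at the median. DNA replication goes from a median of -0.69 to 0.22 and ribosomal proteins from 0.47 to 0.07, while endoplasmic reticulum chaperones have medians below 0 in both.

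Positions on the chromosomes were not evenly affected. The median difference was -0.20 over 527 genes of chromosome 3, -0.15 over 423 of chromosome 13, -0.14 over 744 of chromosome 5 and 0.08 over 603 of chromosome 17, against -0.03 over all genes. On chromosome 3, 107 genes were called lower, 20.3%, and 22 higher, 4.17%. Against the mean of the Jak2WT dKO clones, chromosome 13 was at -0.32 in Jak2V617F dKO clone 1 and at 0.01 in clone 3, and chromosome 3 at -0.31 and -0.10. Cpa3 (-5.47) and S100a9 (-4.19) lie on chromosome 3 and Serpinb1a (-4.95) on chromosome 13. With intact transporters the lowest median of an autosome was -0.34 over 361 genes of chromosome 16, which was at -0.06 in dKO, and the other autosomes were between -0.09 and 0.07. Mcm4, Socs1 and Cd47, which had called interactions, lie on chromosome 16. Of the 45 replication genes tested, 4 lie there, all with a called interaction, and of the other 41 the interaction was called higher for 33. The copy number of chromosomes was not tested.

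The mutant dKO clones also differed from each other in lineage genes. The median over the globin list was 1.65 higher in clone 1 than in clone 3 on the log2 scale, whereas for the Jak2WT dKO clones the same difference was 0.16. Summed over the mature neutrophil list, FPKM came to 198 and 133 in Jak2WT dKO and to 77.3 and 85.3 in Jak2V617F dKO. Summed over the megakaryocyte list, it came to 1004 and 824 and to 953 and 775 in the same order, so that the pairs overlapped, with F2r making up the larger part of each sum. Clone 1 thus had the larger globin sum of the mutant pair and clone 3 the larger neutrophil sum. The part of these lineage transcripts in the differences of other gene groups was not tested.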

How the data were processed

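RNA-seq of poly-A selected mRNA was measured in 8 libraries of 32D cell clones, 2 in each of 4 groups. The deposited values are FPKM per gene on mm39, which the authors made by trimming with fastp (version 1.0.1), aligning with HISAT2 (version 2.2.1) and counting with featureCounts (version 2.0.6), per the labels; the annotation version and strand setting are not given in the sources used here, so overlapping and antisense genes cannot be told apart. Each FPKM value times gene length, divided by the smallest such product above 0 in its library, gave whole reads (tolerance 0.01). Depth was read from these recovered reads. The library size implied by the FPKM values was 0.937 to 1.057 times the recovered reads, so the values were not scaled to counted fragments alone. Their median-ratio factor was the same in all 8 libraries (1.01071).

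Genes with at least 1 FPKM in at least 2 of the 4 dKO libraries were fitted on log2(FPKM + 1) with limma 3.58.1 in R 4.3.3, with 1 mean per group over all 8 libraries, empirical Bayes with the trend and Benjamini-Hochberg adjustment over all genes tested, two-sided, called at an adjusted p under 0.05. Contrasts were Jak2V617F minus Jak2WT in dKO, the same in GLUT1/3 WT, and their difference. The smallest two-sided p of an exact permutation test of 2 against 2 is 0.333, so no such test was used. Alternatives were another pseudocount, other filters, no trend, robust estimates, other scalings, voom on recovered reads, a replicate block, the 4 dKO libraries alone and each library left out. The fit was tested on simulated data.

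Named genes were Slc2a1, Slc2a3 and Jak2, the 15 largest differences in each direction among called genes with non-overlapping clones, the 10 largest called interactions, and of each gene list the called members with the largest differences and the most abundant members, with others named for their role; some of these are not reported here. The members and lists were chosen with earlier results of these data known. Promoter sequences came from RefSeq on GRCm38.p6, another build than that of the files.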

Additional observations from a re-analysis of the deposited data

Results flagged for a closer look

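The background difference (Jak2V617F minus Jak2WT) differed between dKO clones and clones with intact transporters, by the interaction term of limma on log2(FPKM + 1), for 555 genes in the higher and 710 in the lower direction. The genes named in the text that were among them are given here with the interaction on the log2 scale; each adjusted p was under 0.05 over all genes tested, and the counts depended on single Jak2WT clones, as described in the report.

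Among red cell and megakaryocyte genes, the interaction was 3.08 for Hba-x, 2.05 for Hbb-bh1, 1.95 for Alad, 1.87 for Kel and 1.38 for Ank1. It was -2.34 for Rhag, -1.72 for F2r, -0.73 for Gp9 and -0.50 for Cd47. The values of Kel and Hbb-bh1 changed sign with voom on recovered reads.

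Among cell cycle and DNA genes, it was 1.63 for E2f2, 1.58 for Mcm4, 1.46 for Clspn, 1.45 for Rrm2, 1.17 for E2f1, 1.05 for Mcm5, 1.04 for Pcna, 1.00 for Cdkn2d and 0.95 for Mcm6. The exceptions were E2f5 with -0.89 and Radx with -1.15, the latter against mutant clones listed at 0.

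Among genes of nutrient handling and stress, it was -2.12 for Atf5, -1.70 for Slc7a11, -1.69 for Nupr1, -1.42 for Slc38a2, -1.31 for Egln1, -1.26 for Asns, -1.06 for Gpt2, -0.99 for Bnip3, -0.98 for Atf4, -0.89 for Pfkl, -0.87 for Bsg, -0.87 for Pgam1, -0.80 for P4hb, -0.71 for Hk2 and -0.54 for Hif1a. Narf, with 0.94, had the other sign.

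Among cytokine, immune and survival genes, it was -2.57 for Anxa1, -2.06 for Fcgr1, -1.66 for Adgre1, -1.50 for Tarm1, -1.36 for B2m, -1.11 for Il18rap, -0.99 for Cebpe, -0.94 for Csf2rb2, -0.87 for Csf2rb, -0.62 for Tap1, -0.61 for Pim1, -0.52 for Mcl1 and -0.52 for Tnfrsf1a. It was 3.96 for Prg2, 3.05 for Trbv13-2, 1.46 for Ptgs1, 1.21 for Socs1, 0.92 for Oasl2, 0.77 for Stat2 and 0.69 for Itgal. Of the remaining genes, Sval1 had 3.60, Xdh -3.73, Wwox -3.27, Mc5r -1.94, Txnip 1.51, Slamf1 1.15, Mthfd2 -1.10 and Phgdh -0.79. Sval1 was listed at 0 in every Jak2WT clone, so its value depends on the pseudocount.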

How the results depend on the processing

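The difference between Jak2V617F dKO and Jak2WT dKO, with 866 genes higher and 1206 lower, gave 1338 higher and 1329 lower with voom on recovered reads, 989 and 1096 with libraries scaled to the same total FPKM, 633 and 714 without a filter, 457 higher and 637 lower in a fit of the 4 dKO libraries alone, and 211 and 220 at an absolute log2 difference of at least 1. The share of higher among called genes was 41.8% as reported, 47.4% with the same total and 50.2% with voom, which also changes the offset and the weights. Median-ratio scaling divided every library by the same factor, 1.01071, so its agreement with the reported values was fixed in advance. With 1 library left out, 290 to 830 genes were higher and 369 to 1248 lower. The interaction, with 555 higher and 710 lower, gave 165 and 181 without a filter, 1198 and 399 with libraries scaled to the same total FPKM, and 1348 higher with voom; with 1 library left out it gave 1 to 523 higher and 3 to 776 lower. Lower counts without a filter came with more genes tested, and those with a library left out with fewer samples.

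Clone number as a replicate block gave 747 higher and 1043 lower genes in dKO and 453 and 517 in the interaction. Clones of the same number in the 2 dKO groups deviated with a correlation of 0.03 (over all pairs of groups, -0.28 to 0.14). With 2 clones in each group this cannot decide whether clones of a number shared a day or batch. The labels do not say so either, and the block was not used further.

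Of 184 named genes, 144 kept direction and side of the threshold in dKO without a filter, 151 in the 4 dKO libraries alone and at least 177 under each other alternative that kept all libraries, except that 181 were left under the filter on the mean, of which 181 did so. Without Jak2WT dKO clone 1, 125 did so, and without Jak2WT dKO clone 3, 138. Differences that changed sign with 1 library left out were uncalled in the full fit: Cish ranged from -0.297 to 0.0148, Eno1 from -0.21 to 0.28, Il3ra from -0.0333 to 0.104, Mcl1 from -0.166 to 0.0154, Pkm from -0.361 to 0.0095, Rrm2 from -0.139 to 0.161, Slc2a3 from -0.532 to 1.04 and Xdh from -0.473 to 0.168. Of the called interactions of named genes, those that changed sign were Hbb-bh1 (-0.12 with voom) and Kel (-0.052 with a pseudocount of 0.1, -2.796 with voom), and the cause was not tested. The Jak2WT clones with intact transporters were at or near 0 for both genes. Recovered reads were whole for every library, and the number of clones limits the precision.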

Other observations

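Genes of serine and one-carbon metabolism had 3 of 15 called lower and 0 higher in Jak2V617F dKO against Jak2WT dKO, against 10.6% lower over all genes. Phgdh, the first enzyme of serine synthesis, was at 181 and 165 FPKM in the Jak2WT dKO clones and at 116 and 133 FPKM in the Jak2V617F dKO clones (-0.47), with Psat1 at -0.44 and the mitochondrial folate enzyme Mthfd2 at -0.48. Without any 1 of Jak2WT dKO clone 1, Jak2WT dKO clone 3 or Jak2V617F dKO clone 1, 0 of them were called by limma. Of 22 antioxidant and NRF2 target genes, 3 were called higher and 1 lower, against 7.64% and 10.6% over all genes. The red cell peroxiredoxin Prdx2 led those higher, at 14.6 and 16.7 FPKM in Jak2WT dKO and 27.3 and 30.9 FPKM in Jak2V617F dKO (0.86). The higher count fell when Jak2WT dKO clone 1, Jak2WT dKO clone 3 or Jak2V617F dKO clone 1 was left out.

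Of 5 stem and progenitor genes that passed, 2 were called in each direction, against 7.64% higher and 10.6% lower over all genes. Slamf1, a receptor of stem and progenitor cells, was at 4.93 and 7.51 FPKM in Jak2WT dKO and at 17.4 and 14.6 FPKM in Jak2V617F dKO (1.25). Cd33, a sialic acid receptor of myeloid cells that had passed the filter only through the Jak2WT clones and so had to differ, was at 3.54 and 2.83 FPKM and 0.0518 and 0.592 FPKM (-1.69), and Cd48 was at 86.97 and 84.97 FPKM and 36.8 and 52.4 FPKM (-0.95). Arrdc3, a relative of Txnip, was the 1 of 12 genes of the MondoA and Txnip axis called higher (0.97), a share near the 7.64% over all genes, against 2 with libraries scaled to the same total FPKM and 3 with voom on recovered reads.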
